A study of Homo sapiens with 8 samples.

Results

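Oxidative phosphorylation was followed here through 58 genes for subunits of the respiratory chain and ATP synthase, out of 63677 genes in the count tables. They came from a list of gene symbols that was chosen with earlier results of these data known. The list leaves out some subunits, which are described apart below. Of the 58 genes, 13 are encoded by mitochondrial DNA and 45 by nuclear DNA. MOLT-4 and DND-41, both human T-cell acute lymphoblastic leukemia lines, were kept for 24 h in medium with ACBI-1 at 100 nM or in medium with DMSO, the vehicle. The compound brings SMARCA2, SMARCA4 and PBRM1, subunits of SWI/SNF chromatin remodelling complexes, to the VHL ubiquitin ligase, so that the proteins are degraded. The groups were MOLT-4 with ACBI-1, MOLT-4 with DMSO, DND-41 with ACBI-1 and DND-41 with DMSO, each with 2 RNA-seq libraries numbered 1 and 2, and 8 libraries in all. Each line is a single cell line in culture, and the labels do not say whether the libraries of a group came from separate cultures, so a p-value reflects no more than how far these particular libraries scatter, possibly for technical reasons alone. ACBI-1 acts on protein, so transcript counts do not show whether its targets were lost.

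The respiratory chain sits in the inner mitochondrial membrane. Complex I takes electrons from NADH and complex II takes them from succinate. Complex III passes them to cytochrome c, a small soluble carrier, and complex IV hands them to oxygen. Complexes I, III and IV pump protons as they do so, and complex V, the ATP synthase, lets the protons back through a rotating ring and makes ATP. Mitochondrial DNA codes for core subunits of complexes I, III, IV and V and for none of complex II. Its genes are transcribed as long joint RNAs from each strand that are then cut into single transcripts, whereas the nuclear subunit genes are transcribed one by one, and NRF1, the ETS factor GABP and YY1 are known regulators of many of them.

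The list held 23 subunits of complex I (7 mitochondrial, 16 nuclear), 4 of complex II (all nuclear), 7 of complex III (1 mitochondrial, 6 nuclear), 11 of complex IV (3 mitochondrial, 8 nuclear), 12 of complex V (2 mitochondrial, 10 nuclear) and cytochrome c (CYCS, nuclear). NDUFA4, named for complex I, was counted with complex IV, where its protein is found. In 3 cases (NDUFB8, SDHD and COX7B) a further gene ID carried a member's symbol. Those IDs had at most 1 count in any library and were left aside. All 58 members passed the filter on low counts in every comparison.

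For 36 of the 45 nuclear members a promoter, the 250 bases before and 50 bases after the annotated start, was matched in RefSeq (GRCh38.p14). The remaining 9 were ATP5B, ATP5D, ATP5G3, COX6C, CYC1, NDUFB5, NDUFB9, SDHC and UQCRB. The NRF1 motif (GCGC, any base, then TGCGC) was found on either strand in 8 of the 36 promoters (22.2%), against 6.28% of all 27305 promoters and 12.2% of the 9274 promoters of genes tested in MOLT-4. The ETS motif CCGGAAG was found in 11 of the 36 (30.6%), against 10.7% of all promoters and 19.9% of those of tested genes. The YY1 motif AAGATGGCG was found in 5 of the 36 (13.9%), against 1.85% and 4.16%, and the E-box CACGTG in 3 of the 36 (8.33%), against 7.43% and 10.5%. Apart from a pair of NRF1 matches in NDUFA8 that shared bases, no match overlapped another in the 36 promoters. These are exact matches of letters, not measured binding, and sites that differ from these letters were not searched for. The 4 promoters below belong to genes described later and show the range among members, with motif matches in capitals. SDHA (chr5:218070-218369, plus strand) holds 4 NRF1 matches 49 bases apart, SDHD (chr11:112086623-112086922, plus strand) 1 NRF1 and 1 ETS match, and NDUFS3 (chr11:47578824-47579123, plus strand) 2 ETS matches. CYCS (chr7:25125211-25125510, minus strand) holds no exact match to any of the 4 motifs, which does not show that it lacks a site. Its transcript differed most among members between treatments in MOLT-4.
SDHA: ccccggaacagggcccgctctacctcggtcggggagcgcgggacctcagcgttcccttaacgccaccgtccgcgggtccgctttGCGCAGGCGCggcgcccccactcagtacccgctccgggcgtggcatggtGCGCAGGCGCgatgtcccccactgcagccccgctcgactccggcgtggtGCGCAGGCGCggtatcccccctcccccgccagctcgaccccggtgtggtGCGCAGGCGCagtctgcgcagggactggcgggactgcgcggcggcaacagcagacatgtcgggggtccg
SDHD: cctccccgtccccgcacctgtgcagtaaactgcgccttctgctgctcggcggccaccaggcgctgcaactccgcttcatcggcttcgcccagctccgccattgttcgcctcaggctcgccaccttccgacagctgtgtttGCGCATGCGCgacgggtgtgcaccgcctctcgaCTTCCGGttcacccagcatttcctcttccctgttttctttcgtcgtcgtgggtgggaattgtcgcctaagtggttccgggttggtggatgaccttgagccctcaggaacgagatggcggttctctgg
NDUFS3: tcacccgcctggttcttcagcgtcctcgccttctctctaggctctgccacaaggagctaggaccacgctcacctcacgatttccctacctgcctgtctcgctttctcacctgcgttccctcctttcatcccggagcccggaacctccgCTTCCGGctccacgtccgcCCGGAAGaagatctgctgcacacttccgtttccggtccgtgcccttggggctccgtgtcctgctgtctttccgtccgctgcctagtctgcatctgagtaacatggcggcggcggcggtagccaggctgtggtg
CYCS: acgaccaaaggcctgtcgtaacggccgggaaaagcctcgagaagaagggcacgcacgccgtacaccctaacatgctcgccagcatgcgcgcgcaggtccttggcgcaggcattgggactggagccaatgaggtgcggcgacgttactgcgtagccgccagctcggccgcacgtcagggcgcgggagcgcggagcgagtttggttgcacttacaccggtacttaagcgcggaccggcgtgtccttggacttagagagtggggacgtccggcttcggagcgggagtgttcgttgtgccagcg

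Libraries held 21308737 to 22067644 counts assigned to genes. T-lineage transcripts (LCK, CD3D and CD3G) were abundant in all 8 libraries, TAL1 was at 1226 to 2372 counts in MOLT-4 and at most 7 in DND-41, TLX3 was at 2831 to 5287 counts in DND-41 and at 0 in MOLT-4, and the B-cell gene MS4A1 and the erythroid gene HBB were at 0 throughout. In MOLT-4 the libraries stood together by treatment: counts per gene differed with a chi-square per degree of freedom of 2.85 between the ACBI-1 libraries and 1.56 between the DMSO libraries, and 55.7 to 57.0 between treatments. In DND-41 they stood together by number. The libraries labelled ACBI-1 and DMSO with number 1 differed with a value of 6.0 and those with number 2 with 5.53, while all other pairs had 70.2 to 84.1. The authors' deposited DND-41 comparison has the log2 fold change of libraries numbered 2 over libraries numbered 1 for 100% of 27069 genes (within 0.001), and that of ACBI-1 over DMSO as labelled for 0.151%, whereas the deposited MOLT-4 comparison is ACBI-1 over DMSO as labelled for 100% of 27777 genes. DND-41 is therefore given below both as labelled and as deposited, and no DND-41 value is read as a direction of the ACBI-1 response.

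Transcripts of the mitochondrial genome were the most abundant of the set. Per kilobase of exon, the 13 mitochondrial members of MOLT-4 spanned 1903 to 13496 CPM (counts over the scaled library total) with ACBI-1 and 1875 to 14236 CPM with DMSO. The nuclear members spanned 0.525 to 348 CPM per kilobase with ACBI-1 and 0.648 to 455 CPM per kilobase with DMSO, with medians of 35.0 and 36.9. MT-CO2, a catalytic subunit of complex IV, was the highest of all, at 13496 ± 1067 CPM per kilobase under ACBI-1 and 14236 ± 485 under DMSO (SD over 2 libraries). ATP5B, the catalytic beta subunit of ATP synthase, led the nuclear members with 348 ± 2.65 CPM per kilobase with ACBI-1 and 455 ± 0.876 with DMSO. NDUFV2, a complex I subunit that holds an iron-sulfur cluster, was lowest with 0.525 CPM per kilobase with ACBI-1 and 0.648 with DMSO. It had only 30 to 41 counts per MOLT-4 library. Another gene on the same strand shares 28.4% of its exon bases, so its rank is uncertain. Lengths were unions of all annotated exons, up to 14160 bases in SDHC, so nuclear levels and ranks depend on that choice. Every mitochondrial transcript lay above every nuclear one in both groups. In the DND-41 libraries labelled DMSO, ATP5B again led the nuclear members and NDUFV2 again closed the order. MT-CO1, another catalytic subunit of complex IV, came first there at 10228 ± 101 CPM per kilobase.

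As a share of each library, the mitochondrial members held 8.58% and 7.80% of the counts in the MOLT-4 ACBI-1 libraries, against 8.51% and 8.27% in the DMSO libraries. The nuclear members held 0.596% and 0.604% with ACBI-1, against 0.649% and 0.667% with DMSO. Exact 95% binomial intervals, which cover counting error only, reached at most 0.0118 percentage points to either side for the mitochondrial sum and 0.0034 points for the nuclear sum. The mitochondrial shares thus overlapped between treatments, and the nuclear shares did not. Mitochondrial counts per nuclear count came to 14.4 and 12.9 with ACBI-1 and to 13.1 and 12.4 with DMSO.

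In MOLT-4, most of the 58 transcripts were lower after ACBI-1, by a small amount. Each gene was tested with edgeR's quasi-likelihood test on the whole table of 14618 genes, and a gene was called where the Benjamini-Hochberg adjusted p was under 0.05. By that rule 40 members fell and none rose (background: 30.2% of all genes tested were called lower and 28.2% higher). The median log2 fold change was -0.20 over the 58 members and 0.01 over all genes. By genome, 8 of 13 mitochondrial members fell, with a median of -0.21, and 32 of 45 nuclear members fell, with a median of -0.20. Both ACBI-1 libraries lay below both DMSO libraries in CPM for 9 mitochondrial and 35 nuclear members, and above them for 3 nuclear members (background: 38.6% below, 39.2% above). Scaling sets the zero of these changes. Under scaling by total counts, which moved the median of all genes to 0.13, 27 members were called lower and 9 higher (background: 20.7% and 39.7%), and the medians were -0.09 for mitochondrial and -0.08 for nuclear members. DESeq2 on the same counts called 32 lower and none higher (background: 23.6% and 19.1%). RNA per cell was not measured, so a fall in a transcript's share and a change in RNA per cell cannot be told apart.

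**Figure D1:**
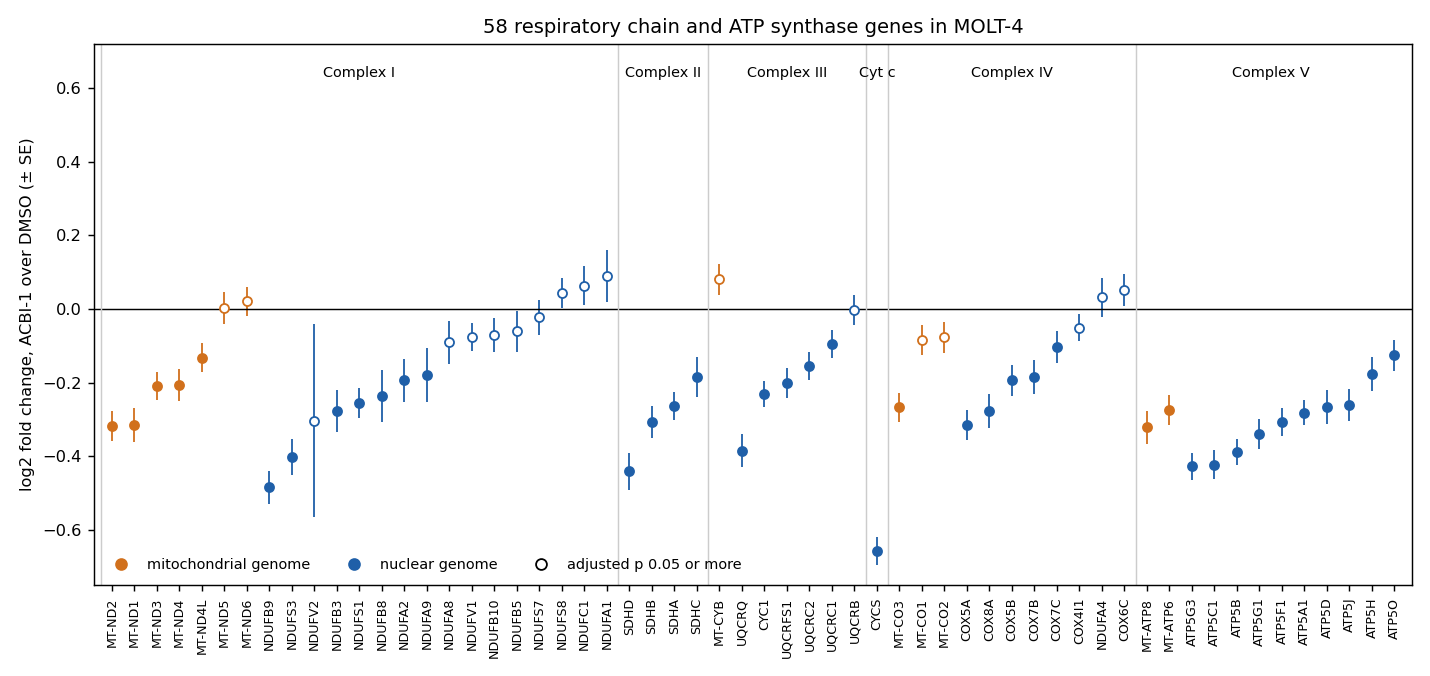
Log2 fold change, ACBI-1 over DMSO, of the 58 members in MOLT-4 (y axis, bars ± SE, edgeR), grouped by complex along the x axis, with mitochondrial members in orange, nuclear members in blue and members that were not called as open circles. Values run from -0.66 (CYCS) to 0.09 (NDUFA1), and all 12 complex V and 4 complex II members lie below 0.

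The complexes differed in how many listed members were called (background: 30.2% of all genes tested lower, 28.2% higher). Every listed nuclear complex V member fell (10 of 10, median -0.29), as did every complex II member (4 of 4, median -0.29). In complex III 5 of 6 nuclear members fell (median -0.18), in complex IV 5 of 8 (median -0.14), and in complex I 7 of 16 (median -0.13). Among mitochondrial members, those of complex V fell in 2 of 2 cases, of complex I in 5 of 7 and of complex IV in 1 of 3. The single one of complex III, MT-CYB, was not called. The mitochondrial complex IV share of 33.3% was near the background. Under total-count scaling 8 of 10 nuclear complex V members and 3 of 4 complex II members were still called lower and none higher. Of all genes tested, 20.7% were called lower and 39.7% higher under that scaling. Of complexes I, III and IV, 4, 2 and 2 nuclear members were called lower and 3, 1 and 2 higher. The 9 called higher under that scaling were MT-ND5, MT-ND6, MT-CYB, NDUFA1, NDUFC1, NDUFS8, UQCRB, NDUFA4 and COX6C, none of which was called under TMM scaling. No test compares one complex with another here.

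CYCS, the electron carrier between complexes III and IV and also a trigger of the apoptosome once released, had the largest change of the set. It stood at 183 and 193 CPM in the ACBI-1 libraries, against 293 and 299.9 CPM in the DMSO libraries. The groups lay far apart compared with the gap within each, and the log2 fold change was -0.66 (SE 0.04, edgeR adjusted p = 1.96e-19).

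**Figure D2:**
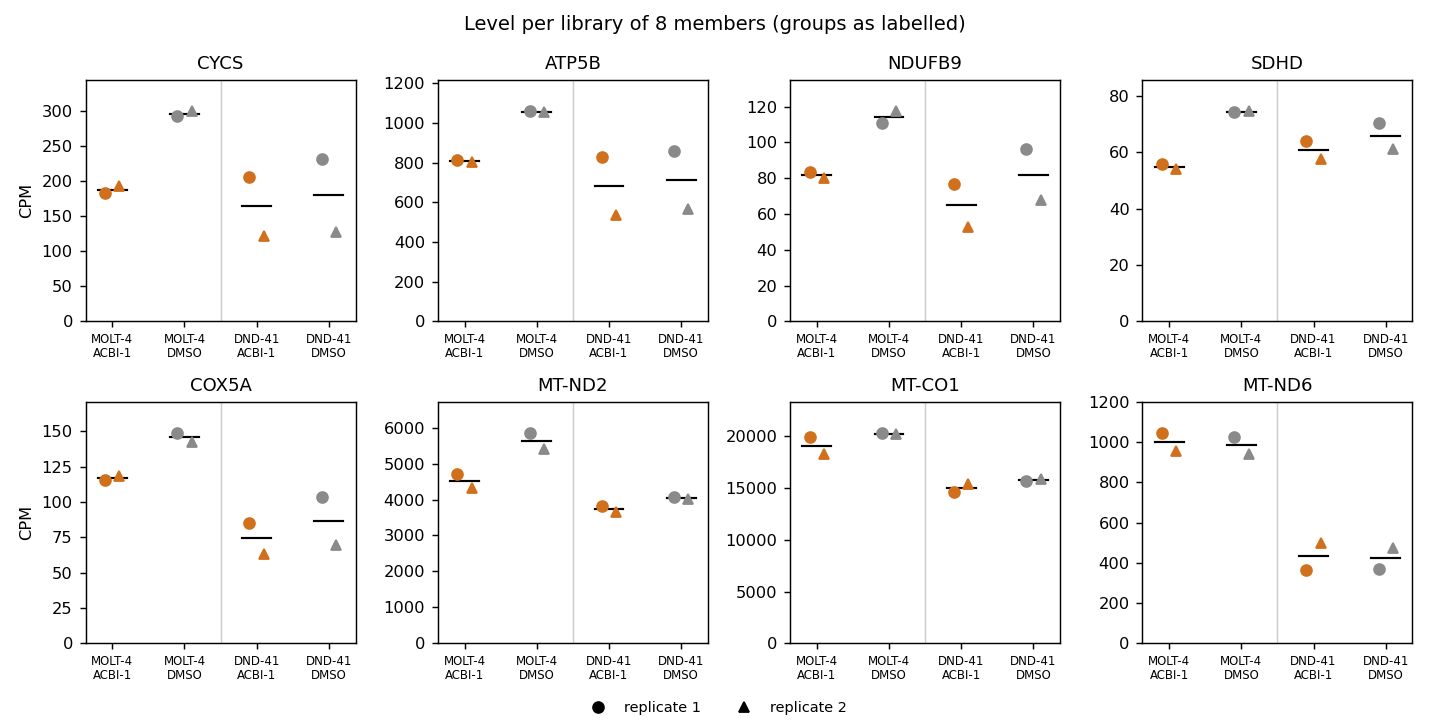
CPM per library (y axis, starting at 0) of 8 members in the 4 groups as labelled (x axis), circles for replicate 1, triangles for replicate 2 and lines for group means, with ACBI-1 in orange and DMSO in grey. In MOLT-4 the ACBI-1 libraries of CYCS (183 and 193 CPM) lie below the DMSO libraries (293 and 299.9 CPM); in DND-41 the circles and triangles separate instead.

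In complex V, the catalytic beta subunit ATP5B stood at 812 and 803 CPM with ACBI-1, against 1058 and 1055 CPM with DMSO (log2 fold change -0.39, SE 0.03, edgeR adjusted p = 2.77e-13). ATP5G3, which encodes the c subunit of the proton-driven ring, stood at 165 and 166 CPM with ACBI-1, against 223 and 223 CPM with DMSO (-0.43, SE 0.04, adjusted p = 2.13e-13 by edgeR). For both genes the 2 libraries of each treatment nearly coincided and the treatments did not overlap. ATP5O, part of the stalk that holds the catalytic head still, had the largest adjusted p of the nuclear complex V members, with 114 and 112 CPM with ACBI-1 against 122 and 125 CPM with DMSO (-0.13, SE 0.04, edgeR adjusted p = 0.00850). It kept its direction but not its call under DESeq2 (adjusted p = 0.0574), without ACBI-1 replicate 2 (edgeR adjusted p = 0.0598) and without DMSO replicate 2 (edgeR adjusted p = 0.119). The other 7 fell by 0.18 (ATP5H) to 0.42 (ATP5C1) on the log2 scale. These include the alpha subunit ATP5A1 and the gamma subunit ATP5C1, the central shaft. Exons of ATP5O overlap the antisense gene LINC00649 and those of ATP5J overlap GABPA on the other strand, and the strand setting of the counting is not given in the sources used here, so these values are uncertain. Also ATP5A1, ATP5F1 (with WDR77), ATP5H (with KCTD2) and 9 members of other complexes each share exon bases with a gene on the other strand. That gene had at least 10% of the member's count. The shared part differed widely: only 3 bases in ATP5A1 and 4 in COX4I1, against 20.2% of exon bases in ATP5J and 44.5% in NDUFA1.

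Complex II, succinate dehydrogenase, also belongs to the tricarboxylic acid cycle. SDHD, a membrane anchor, stood at 55.7 and 54.0 CPM with ACBI-1, against 74.3 and 74.5 CPM with DMSO (log2 fold change -0.44, SE 0.05, edgeR adjusted p = 3.20e-10). SDHB, the iron-sulfur subunit, stood at 89.4 and 90.5 CPM with ACBI-1, against 109 and 113 CPM with DMSO (-0.31, SE 0.04, edgeR adjusted p = 6.83e-08). Neither gene had overlapping groups, and both fell. SDHA, the flavoprotein that oxidises succinate, stood at 138 and 138 CPM with ACBI-1, against 164 and 168 CPM with DMSO (-0.26, SE 0.04, edgeR adjusted p = 1.69e-07). SDHC, the other anchor, stood at 66.7 and 58.2 CPM with ACBI-1, against 68.6 and 73.3 CPM with DMSO (-0.18, SE 0.05, edgeR adjusted p = 0.00358). Both fell, SDHC by the smaller amount and with its highest ACBI-1 library close to its lowest DMSO library. The SDHC call was lost without ACBI-1 replicate 2 (log2 fold change -0.09, adjusted p = 0.254) and without DMSO replicate 2 (-0.14, adjusted p = 0.129). SDHA has near-identical pseudogene copies: their counts came to 18.9% and 19.99% of the SDHA count with ACBI-1, against 14.3% and 13.9% with DMSO, with no overlap, and how reads were shared out between SDHA and its copies was not tested, so the SDHA change is uncertain. SDHD shares exon bases with TIMM8B on the other strand.

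Complex I showed the widest spread among nuclear members. NDUFB9, an accessory subunit of the membrane arm, stood at 83.2 and 80.0 CPM with ACBI-1, against 111 and 117 CPM with DMSO (log2 fold change -0.48, SE 0.04, edgeR adjusted p = 1.39e-12). NDUFS3, a core subunit of the matrix arm, stood at 90.2 and 78.6 CPM with ACBI-1, against 112 and 111 CPM with DMSO (-0.40, SE 0.05, edgeR adjusted p = 1.49e-09). Both fell, with no overlap between groups, although the ACBI-1 libraries of NDUFS3 lay further apart than the DMSO libraries. NDUFS7, another core subunit and the member with the largest adjusted p among nuclear complex I genes, stood at 74.6 and 71.9 CPM with ACBI-1, against 75.1 and 73.7 CPM with DMSO, and its groups overlapped (-0.02, SE 0.05, edgeR adjusted p = 0.708). The others that fell were NDUFB3, NDUFS1, NDUFB8, NDUFA2 and NDUFA9, by 0.18 to 0.28 on the log2 scale. Of the matrix-arm core subunits, then, NDUFS3 and NDUFS1 fell, while NDUFS7, NDUFS8 (0.04), NDUFV1 (-0.08) and NDUFV2 (-0.30) were not called. NDUFV2 had only 30 to 41 counts per MOLT-4 library and its pseudogene NDUFV2P1 held 37.2% as many over all 8 libraries, so its value is uncertain. NDUFB9 and NDUFS3 each share exon bases with genes on the other strand.

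In complex III, UQCRQ, a small accessory subunit, stood at 79.6 and 82.6 CPM with ACBI-1, against 104 and 108 CPM with DMSO (log2 fold change -0.39, SE 0.04, edgeR adjusted p = 7.12e-10). CYC1, cytochrome c1, which passes electrons on to cytochrome c, stood at 226 and 226 CPM with ACBI-1, against 266 and 265 CPM with DMSO (-0.23, SE 0.04, edgeR adjusted p = 4.93e-07). Both fell, and within each treatment the CYC1 libraries differed by less than 1 CPM. UQCRB, another small subunit, stood at 135 and 147 CPM with ACBI-1, against 140.4 and 142 CPM with DMSO, with overlapping groups (-0.00, SE 0.04, edgeR adjusted p = 0.962). The Rieske iron-sulfur protein UQCRFS1 and the core proteins UQCRC2 and UQCRC1 fell by 0.20, 0.16 and 0.10 on the log2 scale.

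In complex IV, COX5A, a nuclear subunit facing the matrix, stood at 116 and 118 CPM with ACBI-1, against 148 and 143 CPM with DMSO (log2 fold change -0.32, SE 0.04, edgeR adjusted p = 9.13e-09). COX8A, a small membrane subunit, stood at 107 and 96.9 CPM with ACBI-1, against 119 and 128 CPM with DMSO (-0.28, SE 0.05, edgeR adjusted p = 1.41e-06). Both fell without overlap between groups. NDUFA4 stood at 56.4 and 58.6 CPM with ACBI-1, against 54.0 and 58.4 CPM with DMSO, with overlapping groups (0.03, SE 0.05, edgeR adjusted p = 0.637). COX5B, COX7B and COX7C fell by 0.19, 0.19 and 0.10, although the COX7C groups overlapped in CPM, and COX4I1 (-0.05) and COX6C (0.05) were not called.

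The 7 mitochondrial members of complex I encode core subunits of its membrane arm. MT-ND1, where the arm meets the quinone site, stood at 5250.1 and 4497 CPM with ACBI-1, against 6357 and 5776 CPM with DMSO (log2 fold change -0.32, SE 0.05, edgeR adjusted p = 1.48e-07). MT-ND2 stood at 4714 and 4309.6 CPM with ACBI-1, against 5837 and 5408 CPM with DMSO (-0.32, SE 0.04, edgeR adjusted p = 7.61e-09). These neighbouring genes fell by like amounts, with no overlap between groups. MT-ND3 stood at 1062 and 961 CPM with ACBI-1, against 1197 and 1144 CPM with DMSO (-0.21, SE 0.04, edgeR adjusted p = 7.77e-06). MT-ND4 stood at 13154 and 11598 CPM with ACBI-1, against 14564 and 13993 CPM with DMSO (-0.21, SE 0.04, edgeR adjusted p = 8.01e-05). MT-ND4L, whose reading frame overlaps that of MT-ND4, stood at 1707 and 1512 CPM with ACBI-1, against 1773 and 1756 CPM with DMSO (-0.13, SE 0.04, edgeR adjusted p = 0.00387). All 3 fell, MT-ND4L with its upper ACBI-1 library just under the DMSO pair and with no call once ACBI-1 replicate 2 was left out (-0.04, edgeR adjusted p = 0.1997). Without that library MT-ND1, MT-ND3 and MT-ND4 were still called, at -0.21, -0.14 and -0.12. DESeq2 kept the direction but not the call of MT-ND4 (adjusted p = 0.0720) and MT-ND4L (adjusted p = 0.220). MT-ND5 stood at 5258 and 4715 CPM with ACBI-1, against 5228 and 4728 CPM with DMSO (0.00, SE 0.04, edgeR adjusted p = 0.963). MT-ND6, the only protein gene read from the other strand, stood at 1044 and 954 CPM with ACBI-1, against 1028 and 941 CPM with DMSO (0.02, SE 0.04, edgeR adjusted p = 0.672). In both genes the library numbered 1 was the higher one in each treatment, and the groups overlapped. Joint RNAs are made from both strands, and the strand setting of the counting is not given. How much of the MT-ND6 count came from RNA of the other strand was not tested, so its values are uncertain.

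MT-CYB, cytochrome b of complex III, stood at 5963 and 5249 CPM with ACBI-1, against 5396 and 5202 CPM with DMSO, with overlapping groups (log2 fold change 0.08, SE 0.04, edgeR adjusted p = 0.0946). Without ACBI-1 replicate 2 it was called higher (0.17, edgeR adjusted p = 0.00401), and without ACBI-1 replicate 1 its value was -0.01. In complex IV, MT-CO1, which holds the oxygen-binding site, stood at 19838 and 18229.7 CPM with ACBI-1, against 20231 and 20124 CPM with DMSO (-0.08, SE 0.04, edgeR adjusted p = 0.0777). MT-CO2, which takes electrons from cytochrome c, stood at 9748 and 8715 CPM with ACBI-1, against 9972 and 9502 CPM with DMSO (-0.08, SE 0.04, edgeR adjusted p = 0.116). Neither was called, and for each the ACBI-1 pair was wider than the DMSO pair. The ACBI-1 libraries of MT-CO1 lay below its DMSO libraries, and the groups of MT-CO2 overlapped. MT-CO3, the third core subunit, stood at 8015 and 7514 CPM with ACBI-1, against 9411 and 9282 CPM with DMSO (-0.27, SE 0.04, edgeR adjusted p = 1.11e-07). In complex V, MT-ATP6, the channel beside the proton ring, stood at 6391 and 5738 CPM with ACBI-1, against 7379 and 7293 CPM with DMSO (-0.27, SE 0.04, edgeR adjusted p = 1.69e-07). MT-ATP8, which overlaps MT-ATP6 by 46 bases, stood at 650.4 and 595 CPM with ACBI-1, against 839 and 718 CPM with DMSO (-0.32, SE 0.04, edgeR adjusted p = 3.67e-08). These 3 fell, with no overlap between groups, MT-ATP8 by 0.21 on the log2 scale without DMSO replicate 1. For all 13 mitochondrial members replicate 2 was below replicate 1 with ACBI-1 and likewise with DMSO. Without ACBI-1 replicate 2 the mitochondrial median was -0.12, against -0.28 without ACBI-1 replicate 1.

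Along the mitochondrial genome the changes were not uniform. The 10 members that come first, MT-ND1 to MT-ND4, had log2 fold changes of -0.32 to -0.08, and MT-ND5, MT-ND6 and MT-CYB, which come last, had 0.00 to 0.08. Over the 12 members on one strand, Spearman's rho between order and log2 fold change was 0.60, as a description only, since these genes share a transcript and the same 4 libraries. MT-CO1 and MT-CO2 broke the order, with smaller changes than the genes on both sides. The 2 ribosomal RNAs, which precede MT-ND1 and are not members, stood at log2 fold changes of -0.14 (MT-RNR1, edgeR adjusted p = 0.000478) and -0.20 (MT-RNR2, edgeR adjusted p = 3.56e-05).

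**Figure D3:**
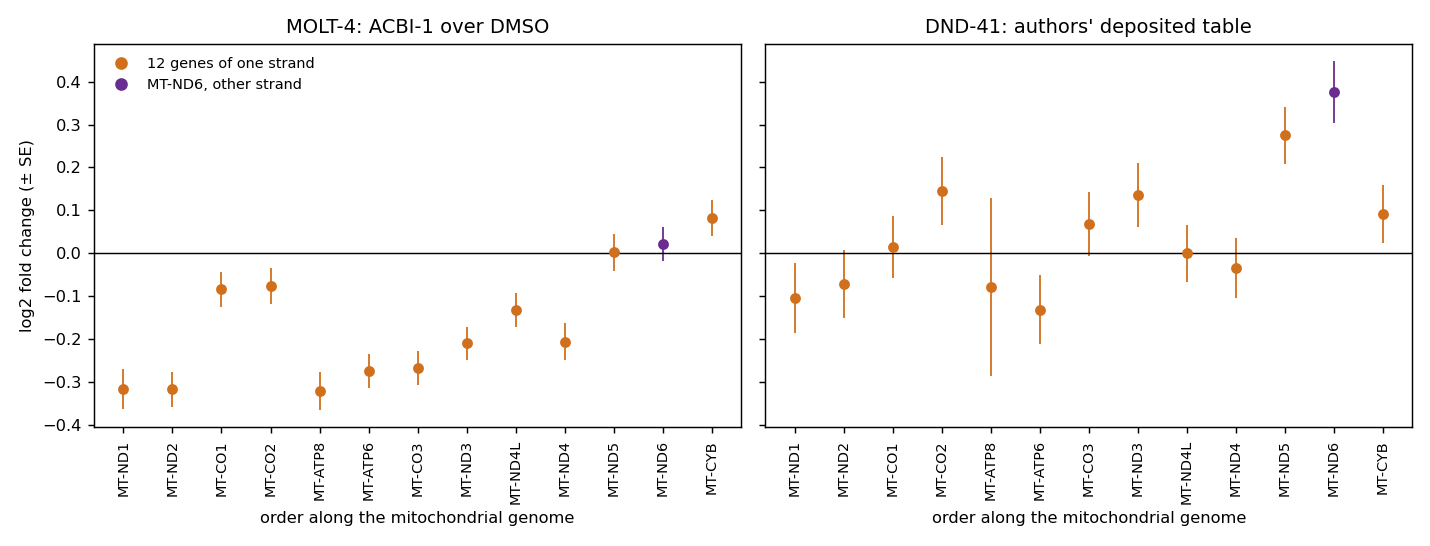
Log2 fold change (y axis, bars ± SE) of the 13 mitochondrial members in their order along the mitochondrial genome (x axis), for MOLT-4 ACBI-1 over DMSO (left, edgeR) and for the authors' deposited DND-41 comparison, which is libraries numbered 2 over 1 (right). The last 3 genes stand at 0.00 to 0.08 in MOLT-4, and MT-ND5 and MT-ND6 have the highest values in the deposited DND-41 table, 0.28 and 0.38.

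Copies of mitochondrial genes in nuclear DNA took 0.411% as many counts as the 13 members over all libraries, and how many reads were shared with them or dropped was not tested. Most of the copies' counts in MOLT-4 lay in 1 gene. MTND1P23, a nuclear copy of MT-ND1, had 10862 and 9559 counts in the MOLT-4 ACBI-1 libraries, against 12156 and 10933 in the MOLT-4 DMSO libraries, and 4 to 10 counts in each DND-41 library. That was 9.23% and 9.42% of the MT-ND1 count with ACBI-1 and 9.08% and 8.99% with DMSO in MOLT-4. Its log2 fold change in MOLT-4 was -0.27 (edgeR adjusted p = 8.18e-07), next to -0.32 for MT-ND1. Whether these reads came from MT-ND1 was not tested.

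The authors' deposited MOLT-4 table, made with DESeq2, called 31 members lower and none higher (background: 20.3% lower, 14.7% higher). Of those, 6 were mitochondrial and 25 nuclear. In the authors' deposited table CYCS had the largest change among members, with a log2 fold change of -0.67 (adjusted p = 4.09e-43).

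In DND-41 as labelled, no member was called in either direction by edgeR (background: 0.0% of 14602 genes), none had an unadjusted p under 0.05, and DESeq2 called none. The spread in this test includes the gap between the numbers, so a lack of calls does not show that the members did not differ. The adjusted p was 0.99998 for all 58 members, and the 4 with the smallest unadjusted p (0.106 to 0.178) were MT-ATP8, COX7B, NDUFC1 and NDUFV2. MT-ATP8 stood at 386 and 355 CPM in the libraries labelled ACBI-1, against 445 and 447 CPM in those labelled DMSO (log2 fold change -0.27, SE 0.13). COX7B, a complex IV subunit, stood at 66.4 and 59.9 CPM in the libraries labelled ACBI-1, against 90.7 and 70.5 CPM in those labelled DMSO (-0.35, SE 0.18). Both labelled ACBI-1 libraries were below both labelled DMSO libraries for these 2 genes, but one DMSO library of COX7B lay close to the ACBI-1 pair. NDUFC1, an accessory complex I subunit, stood at 31.7 and 34.3 CPM against 41.4 and 37.1 CPM (-0.25, SE 0.15), and NDUFV2 at 2.04 and 2.07 CPM against 1.61 and 1.29 CPM (0.50, SE 0.31), again libraries labelled ACBI-1 first. The medians as labelled were -0.08 for mitochondrial and -0.14 for nuclear members. In CPM both libraries labelled ACBI-1 lay below both labelled DMSO for 6 mitochondrial and 10 nuclear members, and above them for 1 nuclear member (background: 7.46% below, 8.66% above). CYCS showed the split by number: 206 and 122 CPM in the libraries labelled ACBI-1 (numbers 1 and 2), against 232 and 128 CPM in those labelled DMSO (numbers 1 and 2), with a log2 fold change of -0.13 and an SE of 0.41.

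Read as the authors' deposited table has it, libraries numbered 2 over libraries numbered 1, the median changes of the nuclear and mitochondrial members differed. In the authors' deposited DND-41 table, 26 of the 45 nuclear members were lower and none higher, and of the 13 mitochondrial members 2 were higher and none lower (background: 21.6% lower, 15.2% higher). The mitochondrial share called higher, 15.4%, was thus near the background. The median log2 fold change there was -0.30 for nuclear and 0.01 for mitochondrial members. In CPM, both libraries numbered 2 lay below both numbered 1 for 33 nuclear and no mitochondrial members, and above them for 1 nuclear and 7 mitochondrial members (background: 36.8% below, 38.9% above). Mitochondrial counts per nuclear count were 14.1 and 13.9 in the libraries numbered 2, against 10.9 and 10.5 in those numbered 1, with no overlap. The groups compared there are not the labelled treatments, so the labels do not give these differences a direction relative to ACBI-1.

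By complex, the authors' deposited DND-41 table had 9 of 10 nuclear complex V members lower (median -0.41) and 5 of 6 in complex III (-0.26). It had 7 of 16 lower in complex I (-0.26), 3 of 8 in complex IV (-0.23) and 1 of 4 in complex II (-0.16). Of all genes there, 21.6% were called lower, so the complex II share of 25.0% was near the background. CYCS stood at 122 and 128 CPM in the libraries numbered 2, against 206 and 232 CPM in those numbered 1, and its log2 fold change in the authors' deposited table was -0.84 (adjusted p = 5.19e-19). ATP5B stood at 536 and 567 CPM in the libraries numbered 2, against 827 and 856 CPM in those numbered 1 (-0.64 in the authors' deposited table). Both separated completely by number. ATP5G1, a second gene for the ring's c subunit, stood at 52.1 and 60.1 CPM in the libraries numbered 2, against 81.3 and 100.3 CPM in those numbered 1 (-0.73 in the authors' deposited table). MT-ND6 stood at 502 and 477 CPM in the libraries numbered 2, against 366 and 371 CPM in those numbered 1 (0.38, adjusted p = 1.53e-06 in the authors' deposited table). MT-ND5 stood at 3735 and 3538 CPM in the libraries numbered 2, against 2899.6 and 2977 CPM in those numbered 1 (0.28 in the authors' deposited table). MT-ND5 and MT-ND6 went the other way from CYCS and the ATP synthase genes named here. The other 11 mitochondrial members were not called. The limit on the strand of the MT-ND6 count holds here too.

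Set beside the MOLT-4 result, 24 members were called lower both in MOLT-4 by edgeR and in the authors' deposited DND-41 table, which is 24 of 40 in the first and 24 of 26 in the second. The other 2 of the 26 were NDUFB10 and NDUFS8. The 16 members called lower in MOLT-4 and not called in the authors' deposited DND-41 table included all 8 mitochondrial ones. Across the 45 nuclear members Spearman's rho between the MOLT-4 log2 fold change and that of the authors' deposited DND-41 table was 0.68, and across the 13 mitochondrial members 0.80. Over the 13383 genes found in both results, whether called or not, 17.7% were called lower in both. That is 57.6% of those called lower in MOLT-4 and 77.7% of those called lower in the authors' deposited DND-41 table. Spearman's rho over these genes was 0.64. These are descriptions over genes that share libraries, with no test.

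**Figure D4:**
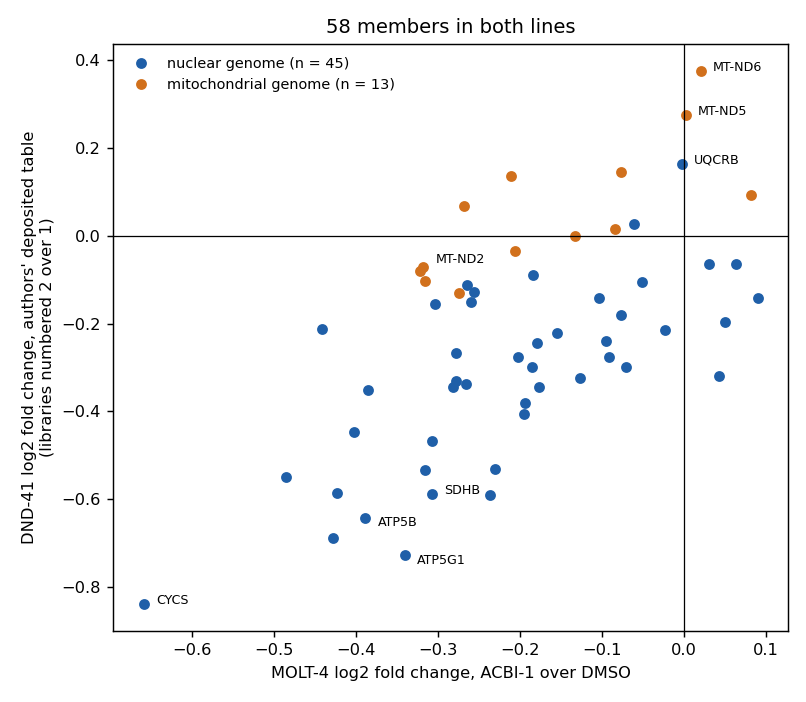
Each point is 1 of the 58 members, with its MOLT-4 log2 fold change, ACBI-1 over DMSO, on the x axis and its log2 fold change in the authors' deposited DND-41 table, libraries numbered 2 over 1, on the y axis; nuclear members are blue and mitochondrial members orange. CYCS is lowest on both axes (-0.66 and -0.84) and MT-ND6 is highest on the y axis (0.02 and 0.38).

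A test of whether the ACBI-1 change differed between MOLT-4 and DND-41 as labelled called no member (background: 0.393% of 16047 genes by edgeR, 0.125% higher and 0.268% lower). DESeq2 also called none, and 1 member had an unadjusted p under 0.05. That was NDUFS1, the largest core subunit of complex I, with an interaction of -0.32 on the log2 scale, MOLT-4 change minus DND-41 change (SE 0.13, edgeR adjusted p = 0.480). The next by adjusted p were NDUFV2 (-0.80, SE 0.34), NDUFC1 (0.32, SE 0.14) and SDHD (-0.32, SE 0.15). With SEs this wide, and with DND-41 libraries that stand apart by number, these values do not show that the lines respond alike.

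Between the libraries labelled DMSO, most members were higher in MOLT-4 than in DND-41. There edgeR called 30 of the 58 higher in MOLT-4 and 1 lower (background: 17.7% higher, 17.4% lower of 15069 genes). Since the DND-41 libraries stood together by number, whether both of those labelled DMSO were free of the compound was not tested. The 13 mitochondrial members were all called higher, with a median log2 fold change of 0.70, as were 17 of 45 nuclear members, with a nuclear median of 0.47 and a median of -0.02 over all genes. In CPM both MOLT-4 libraries lay above both DND-41 libraries for all 13 mitochondrial and 41 nuclear members and below them for 2 nuclear members (background: 38.0% above, 38.0% below). The lines came in separate count tables, so line and table cannot be told apart.

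MT-ND6 had the largest difference, with 1043 and 957 CPM in MOLT-4, against 348 and 449.8 CPM in DND-41 (log2 fold change 1.33, SE 0.16, edgeR adjusted p = 0.00765). ATP5A1, the alpha subunit of ATP synthase, stood at 568 and 579 CPM in MOLT-4, against 273 and 220.3 CPM in DND-41 (1.22, SE 0.14, edgeR adjusted p = 0.00666). For both genes the gap between lines was several times the gap between libraries of a line. The MT-ND6 count may include RNA of the other strand, which was not tested. MT-ATP8 stood at 850.4 and 730.2 CPM in MOLT-4, against 418 and 422 CPM in DND-41 (0.91, SE 0.12, edgeR adjusted p = 0.00894). MT-CO2 stood at 10113 and 9669 CPM in MOLT-4, against 5030.4 and 5631 CPM in DND-41 (0.89, SE 0.12, edgeR adjusted p = 0.00986). The single member called lower, NDUFA4, named here because it stood alone, was at 54.8 and 59.5 CPM in MOLT-4, against 91.8 and 89.5 CPM in DND-41 (-0.67, SE 0.10, edgeR adjusted p = 0.0125). MTND1P23 took counts worth 9.08% and 8.99% of MT-ND1 in the MOLT-4 libraries compared and 0.00837% and 0.00785% in the DND-41 ones.

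**Figure D5:**
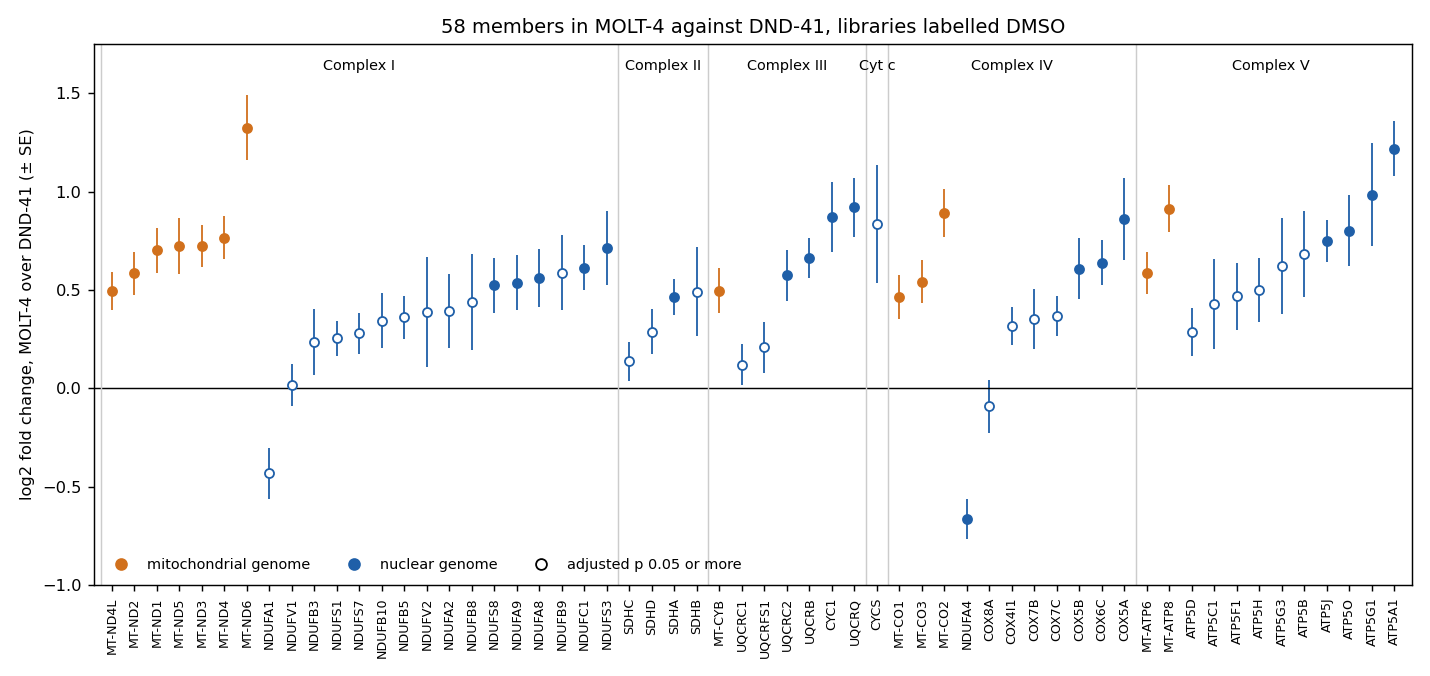
Log2 fold change, MOLT-4 over DND-41 in the libraries labelled DMSO (y axis, bars ± SE, edgeR), of the 58 members grouped by complex (x axis), with mitochondrial members in orange, nuclear members in blue and members not called as open circles. All 13 mitochondrial members lie between 0.47 and 1.33, and the nuclear members run from -0.67 (NDUFA4) to 1.22 (ATP5A1).

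How many members were called between the lines depended on which libraries were kept, and the DND-41 libraries labelled DMSO stood apart by number. Without DND-41 DMSO replicate 1, 53 members were called higher and 2 lower (background: 36.9% and 34.6%), and without replicate 2, 48 higher and 3 lower (background: 33.0% and 30.6%). Without MOLT-4 DMSO replicate 1 or 2, 2 and 3 members were called, all higher (background: 7.36% and 7.41% higher, 6.26% and 6.28% lower). The mitochondrial median stayed at 0.63 to 0.77 in these 4 fits, while the nuclear median was 0.71 without DND-41 DMSO replicate 1 and 0.32 without replicate 2. Under total-count scaling, which moved the median of all genes to -0.18, 18 members were called higher and 2 lower (background: 14.2% and 22.1%).

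Other genes of the same machinery were read from the same MOLT-4 test, in which 28.2% of all genes were called higher and 30.2% lower. Of 36 further subunits of complexes I to V, 5 rose and 20 fell (median -0.15). NDUFS5, an accessory complex I subunit, stood at 53.0 and 53.7 CPM with ACBI-1, against 79.4 and 84.2 CPM with DMSO (log2 fold change -0.62, SE 0.05, edgeR adjusted p = 2.78e-14), and UQCRH, of complex III, and NDUFA12, of complex I, fell by 0.54 and 0.50 on the log2 scale. Of 40 assembly factors, 4 rose and 21 fell (median -0.18). ECSIT, needed for complex I assembly, stood at 64.3 and 66.3 CPM with ACBI-1, against 43.6 and 42.7 CPM with DMSO (0.60, SE 0.05, edgeR adjusted p = 4.64e-13), whereas the complex I assembly factor NDUFAF4 had -0.67 and COX11, which carries copper to complex IV, -0.36.

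Of 29 genes for mitochondrial transcription and RNA handling, 2 rose and 23 fell, with a median of -0.33. POLG2, the accessory subunit of the mitochondrial DNA polymerase, rose to 59.6 and 56.1 CPM with ACBI-1, against 34.9 and 33.6 CPM with DMSO (0.76, SE 0.06, edgeR adjusted p = 3.67e-15). ELAC2, which trims the 3′ ends of mitochondrial tRNAs, had -0.49, and the mitochondrial topoisomerase TOP1MT had -0.51. Of 14 tricarboxylic acid cycle genes, 11 fell and none rose (median -0.28), among them MDH2 (-0.65), IDH3A (-0.69) and FH (-0.45). Of 12 transcriptional regulators of respiratory genes, 4 rose and 6 fell, against the same background of 28.2% higher and 30.2% lower. MYC stood at 323 and 315 CPM with ACBI-1, against 526 and 511 CPM with DMSO (-0.70, SE 0.04, edgeR adjusted p = 3.16e-21), and the nuclear receptor ESRRA at 15.2 and 14.9 CPM against 34.7 and 34.8 CPM in the same order (-1.21, SE 0.07, edgeR adjusted p = 1.52e-18). GABPA, the DNA-binding subunit of the ETS factor GABP, rose to 163 and 176 CPM with ACBI-1, against 103 and 103 CPM with DMSO (0.72, SE 0.04, edgeR adjusted p = 6.91e-19), next to ATP5J, which shares exon bases with it on the other strand and had -0.26. Of the 26 members with a promoter that fell in MOLT-4, 9 held the ETS motif, 7 the NRF1 motif, 4 the YY1 motif and 2 the E-box. Of the 10 that were not called, 2, 1, 1 and 1 did. Among promoters of all genes tested the shares were 19.9%, 12.2%, 4.16% and 10.5%. Whether a motif or a regulator relates to the changes was not tested.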

How the data were processed

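RNA of 2 human T-cell leukemia lines was sequenced in 4 groups of 2 libraries. Read counts per gene were made by the authors with STAR 2.5.2a, featureCounts and DESeq2 1.12.4 on genome build hg19, per the submitters' processing notes, and per the labels' protocols the libraries were strand-specific, with paired-end reads. The strand setting of the counting is not given in the sources used here. The authors also deposited log2 fold changes with their errors and adjusted p-values from DESeq2, one table per line. Members were found by symbol in those tables and joined by Ensembl ID to both count tables. Members, gene lists and tests were chosen with earlier results of these data known.

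From the deposited counts, genes passing filterByExpr were fitted with edgeR 4.0.16 in R 4.3.3 (TMM scaling, quasi-likelihood test, 2-sided, Benjamini-Hochberg over all genes tested, threshold 0.05), within each line, over all 8 libraries for the interaction and over the DMSO libraries for the lines. DESeq2 1.42.0 was an alternative. CPM used TMM-scaled library totals of the same fit. Levels per kilobase used the union of exons in GENCODE 29 (GRCh38), matched by gene ID, so they carry no hg19 coordinates. The edgeR fits were tested on simulated data. Most changes set there at 2-fold were missed in the DND-41, interaction and line fits. A member not called in those comparisons may therefore still differ. Named in full were the mitochondrial and complex II members, per complex the nuclear members with the 2 smallest and the largest adjusted p in MOLT-4, the 4 smallest in other comparisons, and in each further list the 3 smallest. Promoters came from RefSeq. Alternatives were other scalings and filters, no mitochondrial genes, a replicate block, a spread shared by all 8 libraries, and leaving out each library.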

Additional observations from a re-analysis of the deposited data

How the results depend on the processing

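Across the named MOLT-4 members and the alternatives run, 281 of 347 values kept direction and side of the threshold, 39 lost the call, 10 gained one and 17 changed sign. In MOLT-4 without each library in turn, the median ran from -0.28 to -0.12 for mitochondrial and from -0.23 to -0.20 for nuclear members. With the spread taken from all 8 libraries, whose DND-41 libraries stand apart by number, the MOLT-4 count was 0 lower and 0 higher. In that fit 1.83% of all genes were called lower and 1.56% higher, and 10 members had an unadjusted p under 0.05. Total-count scaling gave 9 higher, medians of -0.0873 (mitochondrial) and -0.0826 (nuclear), 20 calls between the lines, and signs above 0 for MT-CO1 (0.0348), MT-CO2 (0.0420), NDUFS7 (0.0968) and UQCRB (0.117). In MOLT-4 without a low-count filter, 30 members were called lower, 3 mitochondrial and 27 nuclear, and none higher. The filtered fit had 40 lower, 8 mitochondrial and 32 nuclear. Of all genes in the fit without the filter, 12.6% were called lower and 9.22% higher. In that fit MT-ND5 was at -0.0188 and MT-ND6 at -0.000559, and with a minimum of 1 CPM UQCRB was at 0.00822. Leaving out a library gave -0.0779 to 0.0819 for MT-ND5, -0.0473 to 0.0873 for MT-ND6, -0.0135 to 0.173 for MT-CYB, -0.160 to 0.00435 for MT-CO2, -0.0496 to 0.00730 for NDUFS7, -0.0605 to 0.0556 for UQCRB and -0.0285 to 0.0831 for NDUFA4. None of these 7 was called in the fit of all MOLT-4 libraries, and the cause of each change was not tested. Between the lines, 2 to 55 members were called without each library, and 18 without mitochondrial genes, a test of 45 members only. For DND-41 as labelled and for the interaction no member was called when any library was left out. A group left with 1 library was assumed to vary like the other groups.

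The replicate numbers are shared by the groups, but the labels do not say that they mark a common culture or day. Deviations of same-numbered libraries from their group means correlated at 0.00402 in MOLT-4, 0.893 in DND-41 and -0.00442 between the lines. With the replicate number as a block, MOLT-4 had 42 members lower, MT-CO1 and MT-CO2 among them, and 1 higher, MT-CYB (all genes: 30.3% lower, 28.4% higher). DND-41 as labelled then had 22 members called, where the fit without the block called none, all lower and 21 of them nuclear (all genes: 5.32% higher, 3.92% lower). The interaction had 22 (5 higher, 17 lower; all genes: 17.2% and 19.3%) and the line difference 25 (all genes: 17.1% higher, 16.9% lower). Depth limited NDUFV2, with 30 to 41 counts per MOLT-4 library.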

Other observations

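Look-alike copies outside the member list also differed. MTND1P23 was higher in MOLT-4 than in DND-41 by 10.80 on the log2 scale in the libraries labelled DMSO (edgeR adjusted p = 0.000476), whereas MTND4P12, a nuclear copy of MT-ND4, was lower in MOLT-4 by 2.06 and MTND6P4, a copy of MT-ND6, by 2.31 (adjusted p = 0.00197 and 0.00391 by edgeR). In MOLT-4, SDHAP3, a copy of SDHA, stood at 348 and 367 counts with ACBI-1, against 243 and 247 counts with DMSO (log2 fold change 0.45, edgeR adjusted p = 5.36e-05), while SDHAP1 had -0.09 (edgeR adjusted p = 0.463).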
